A study of Mus musculus with 4 samples.

Results

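The 6 genes Prl8a2, Prl3d1, Prl3b1, Prl2c2, Prl8a9 and Prl7d1 of the mouse prolactin family were followed in embryo pieces homozygous or heterozygous for a GFP allele of Noto, which encodes a homeobox transcription factor of the node. A probe belonged to the set when its name in the files, or the current symbol of any transcript it is listed for, was one of the 6 genes, older names included. All 6 were found through 11 of the 41174 probes, which carry 27591 gene names in all. The set was chosen from these same arrays because Prl8a2 had the largest rise among genes with a real symbol under the settings of this text. Its own ratio is therefore given as a description. One probe, for the transcript with the clone name 9430027B09Rik, lay higher (mean log2 ratio 2.02 ± 0.10).

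The homozygous pool (Noto GFP/GFP) and the heterozygous pool (Noto GFP/+) were both made from early headfold embryos (about E7.75, the age in every label) on a mixed Sv129/CD-1 background. The distal end of each embryo, with the ventral node, was cut off and 120 to 150 pieces were pooled, and the labels differ on how large that piece was. RNA of both pools was hybridised together on 1 Agilent array, with the homozygote in Cy5 and the heterozygote in Cy3, and again on a second array with the dyes exchanged. Each genotype thus has 2 samples from 1 RNA pool. Every embryo carried the GFP insertion on at least one chromosome, and although the design text speaks of wild type, the labels name heterozygotes as the other group. Ratios are log2 of homozygote over heterozygote, given as mean ± SD over the 2 arrays, and the SD measures technical spread only. No test was made, since there is no biological replicate.

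Mouse prolactin-family genes form a large cluster of hormone genes that are mostly expressed outside the pituitary, in the decidua, which is the mother's transformed uterine lining, and in trophoblast, the embryo's outer lineage. Placental lactogens act through the prolactin receptor and keep the maternal ovary producing progesterone, while other members have lost that receptor and act on blood vessels, blood cells or natural killer cells. Neither decidua nor trophoblast belongs to the distal embryo proper, so these transcripts also serve as markers of surrounding tissue.

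The probes that carry the results are shown here because several of them cannot separate close relatives. All lie on chromosome 13 of mouse build mm8, and each probe is 60 bases long. The first group holds the opening 30 bases of the probes for Prl8a2 (chr13:27361377-27361436, plus strand), Prl3d1 (chr13:27107607-27107666, plus strand) and Prl3b1 (chr13:27256981-27257040, plus strand), each listed for 1 gene.
Prl8a2: atatgggaataccttccaggcctaagatca
Prl3d1: tgcccacatggtctttgttgaaccagactt
Prl3b1: ataacaacaactgctgaacatctatccctc

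The second group holds whole probes shared by close relatives. One is listed for Prl3d1, Prl3d2 and Prl3d3 (chr13:27134812-27134871, plus strand). The proliferin probe for Prl2c2 and Prl2c3 (chr13:12846209-12847142, minus strand) and the one for Prl2c1 and Prl2c5 (chr13:13080386-13081321, plus strand) span 934 and 936 bases of the genome, so both cross an intron. The third proliferin probe, for Prl2c2, Prl2c3 and Prl2c5 (chr13:13080289-13080348, plus strand), is unbroken in the genome.
Prl3d1, Prl3d2 and Prl3d3: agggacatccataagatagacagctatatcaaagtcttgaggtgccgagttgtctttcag
Prl2c2 and Prl2c3, across a junction: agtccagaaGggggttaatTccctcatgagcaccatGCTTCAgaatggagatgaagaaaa
Prl2c1 and Prl2c5, across a junction: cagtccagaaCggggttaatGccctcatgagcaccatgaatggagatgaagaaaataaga
Prl2c2, Prl2c3 and Prl2c5: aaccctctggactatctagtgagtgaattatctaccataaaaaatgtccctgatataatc

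Capitals in the junction pair mark where a script's alignment found them to differ. Over 54 aligned bases 52 matched and 2 were substitutions, and 6 further bases were present in the first probe only (their placement within the run is not unique). Cross-hybridisation between these relatives was not tested, and no probe in the files is named Prl2c2, which was reached only through the transcripts that shared probes are listed for.

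Of the 11 member probes 8 were measured, meaning that at least 1 genotype was well above background on each of the 2 arrays, and all 8 were so in all 4 samples. The size rule asked for a change of 1.5-fold or more (a log2 ratio of 0.58) that both arrays show in one direction. One probe met it, that of Prl8a2, which was higher. None of the 8 was lower by that rule. Among all 27788 measured probes 0.0864% were called higher and 2.01% lower. The 8 mean ratios ranged from -0.33 to 1.11 with a median of 0.23. Of these, 6 were above 0 on both arrays and 2 below 0 on both, where 30.4% of all measured probes were above 0 on each array and 30.7% below. Because the set was chosen on this same contrast, nothing is read from these shares.

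**Figure D1:**
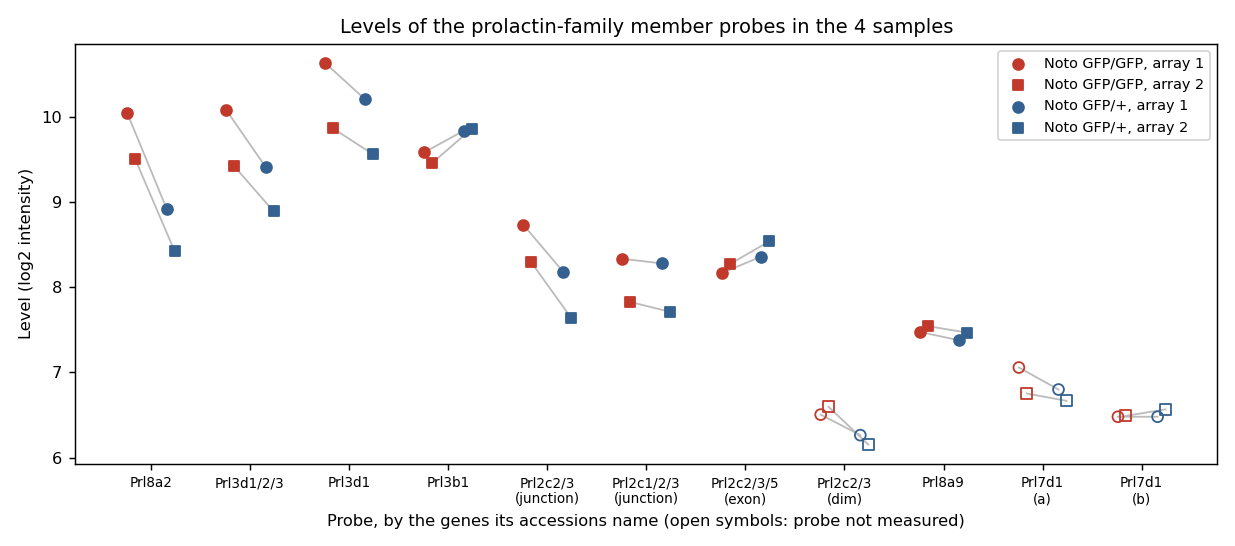
Level of each member probe in the 4 samples, as log2 intensity after normalization, with Noto GFP/GFP (red) left of Noto GFP/+ (blue), circles for array 1, squares for array 2 and a grey line joining the samples of an array. Both homozygote samples of Prl8a2 (10.05 and 9.51) lie above both heterozygote samples (8.92 and 8.42), while Prl3b1 slopes the other way.

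Prl8a2, also called decidual prolactin-related protein, is a secreted product of the antimesometrial decidua. Its level was 10.05 and 9.51 (log2 intensity, arrays 1 and 2) in the homozygote, against 8.92 and 8.42 in the heterozygote. The groups did not overlap, and the lower homozygote sample lay above the higher heterozygote one. Overlap is described here and below across arrays, over 2 readings of 1 RNA pool per genotype. How many of all probes separate in this way was not counted, so nothing is read from it. The log2 ratio was 1.13 on array 1 and 1.09 on array 2, a mean of 1.11 ± 0.03 or 2.15-fold. With a median probe SD of 0.12 over all measured probes, the 2 arrays were close for this probe. Before normalization its spot read 1117 and 696 over backgrounds of 52 and 65 in the homozygote, against 321 and 594 over 46 and 66 in the heterozygote. The raw gap was smaller on array 2, whose median gene spot read 399.6 in the homozygote's Cy3 channel and 722 in the heterozygote's Cy5 channel. Without background correction the mean ratio was 1.05, with median centring 1.18, and with the scanner software's ratio 1.34.

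Prl3d1, placental lactogen I, is made by trophoblast giant cells early in gestation and acts through the prolactin receptor. The probe listed for Prl3d1 alone had levels of 10.63 and 9.86 in the homozygote, against 10.21 and 9.56 in the heterozygote. Each homozygote sample was the higher one on its own array, although the genotypes overlapped across arrays. Its ratio was 0.42 and 0.30, a mean of 0.36 ± 0.09, which missed the 1.5-fold rule. The probe shared with its near copies Prl3d2 and Prl3d3 read 10.08 and 9.42 in the homozygote, against 9.41 and 8.89 in the heterozygote. Its genotypes were separated by a margin of the last digit. The ratio of this shared probe was 0.67 on array 1 and 0.53 on array 2 (mean 0.60 ± 0.10), so it passed the rule on array 1 and fell just short on array 2.

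Prl3b1, placental lactogen II, follows Prl3d1 later in gestation and uses the same receptor. Its levels were 9.58 and 9.46 in the homozygote, against 9.84 and 9.86 in the heterozygote. Both homozygote samples lay below both heterozygote samples, the opposite order to Prl8a2. The ratio was -0.25 and -0.40, with a mean of -0.33 ± 0.10, which missed the rule. The Prl3d1 and Prl3b1 probes therefore gave ratios of opposite sign on each array, and this kept under all alternatives run, with Prl3b1 between -0.40 and -0.24 on average.

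**Figure D2:**
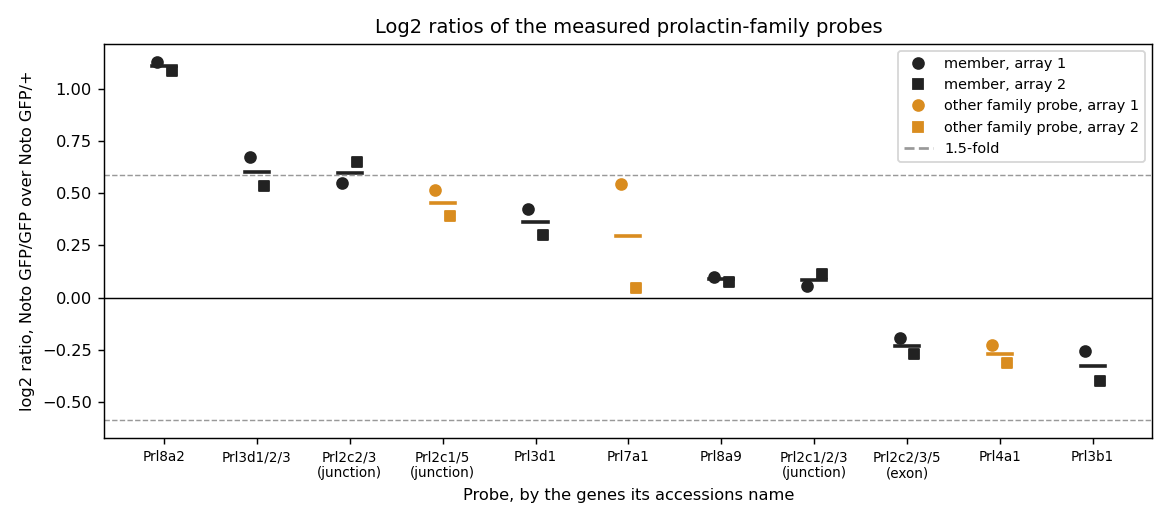
Log2 ratio (Noto GFP/GFP over Noto GFP/+) of the 11 measured family probes on array 1 (circles) and array 2 (squares), with bars at the mean; members are black, other family probes orange, and dashed lines mark 1.5-fold. Prl8a2 stands at 1.13 and 1.09, the shared probes of Prl3d1/2/3 and Prl2c2/3 straddle the upper line, and Prl3b1 is lowest at -0.25 and -0.40.

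Proliferin, the product of Prl2c2, is secreted by trophoblast giant cells and promotes the growth of blood vessels. Of the 4 probes that reach Prl2c2, all are shared with at least one other proliferin gene, and 3 were measured. The junction probe for Prl2c2 and Prl2c3 read 8.73 and 8.29 in the homozygote, against 8.18 and 7.64 in the heterozygote. Its genotypes did not overlap, and its ratio of 0.55 and 0.65 (mean 0.60 ± 0.07) passed the rule on array 2 and missed it on array 1.

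A second junction probe, listed for Prl2c1, Prl2c2 and Prl2c3 (chr13:12847280-12848452, minus strand), had levels of 8.33 and 7.83 in the homozygote, against 8.28 and 7.71 in the heterozygote. Here each homozygote sample was the higher one on its own array, while the genotypes overlapped across arrays. The ratio was 0.06 and 0.11, a mean of 0.09 ± 0.04. The unbroken probe for Prl2c2, Prl2c3 and Prl2c5 read 8.17 and 8.27 in the homozygote, against 8.36 and 8.54 in the heterozygote. Its homozygote samples were the lower ones, with ratios of -0.19 and -0.27 (mean -0.23 ± 0.05). The fourth probe, for Prl2c2 and Prl2c3 (chr13:12848492-12851986, minus strand), was well above background in no sample.

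The proliferin probes thus did not give 1 common value. The junction probe for Prl2c1 and Prl2c5, which is no member probe, read 9.48 and 9.02 in the homozygote, against 8.96 and 8.63 in the heterozygote, with a ratio of 0.52 and 0.39 (mean 0.45 ± 0.09). It lies 37 bases from the unbroken proliferin probe in the mm8 coordinates, and on the 2 arrays its ratio exceeded that probe's by 0.71 and 0.66. Neighbouring probes listed for overlapping sets of proliferin genes therefore had ratios of opposite sign, a gap several times the SD of either. Which proliferin transcripts each probe caught was not tested.

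Prl8a9, a prolactin-like protein of the placenta, was dim, with levels of 7.47 and 7.54 in the homozygote, against 7.38 and 7.47 in the heterozygote (chr13:27565714-27565773, minus strand). The genotypes touched at 7.47. Its ratio was 0.10 and 0.08 (mean 0.09 ± 0.02) and turned to -0.06 with median centring, so no direction is given. Prl7d1, proliferin-related protein, which restrains blood vessel growth in the placenta, was not measured by either of its 2 probes. The probe at chr13:27716618-27716677 (minus strand) read 7.06 and 6.75 in the homozygote, against 6.80 and 6.67 in the heterozygote, and was well above background in the homozygote of array 1 only. The probe at chr13:27714456-27714515 (minus strand) was well above background in no sample, at 6.48 and 6.49 in the homozygote, against 6.48 and 6.57 in the heterozygote. No ratio is given for Prl7d1.

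**Figure D3:**
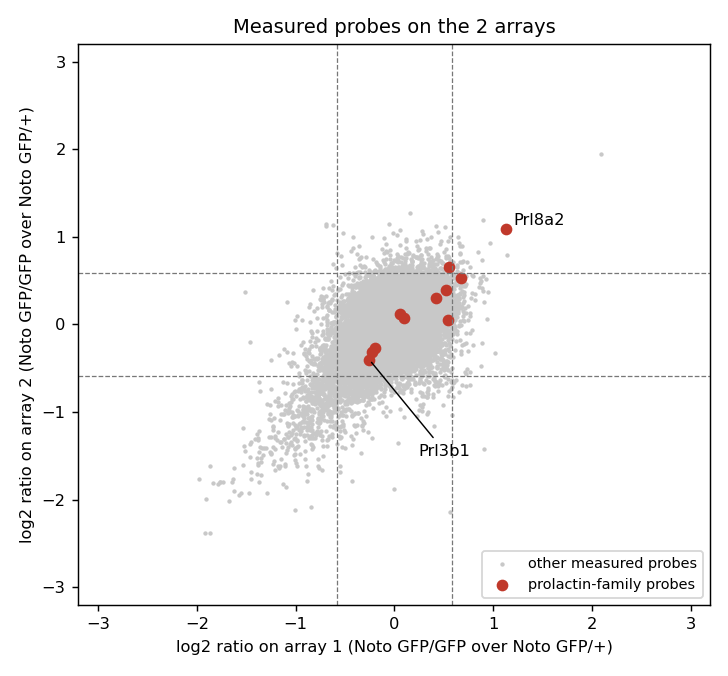
Log2 ratio (Noto GFP/GFP over Noto GFP/+) of each measured probe on array 1 (x axis) and array 2 (y axis), with the 11 measured prolactin-family probes in red and dashed lines at 1.5-fold in each direction. Prl8a2 lies alone among the family in the upper right at 1.13 and 1.09, Prl3b1 on the lower left side, and the single grey point beyond Prl8a2 is the clone transcript 9430027B09Rik.

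Of the 27 family genes listed, 26 were reached by at least 1 of 29 probes. The 18 probes outside the member set covered the rest of the family and added 3 measured ones. Besides the Prl2c1 and Prl2c5 junction probe these were Prl4a1, whose product (prolactin-like protein A) acts on uterine natural killer cells, and Prl7a1, a product of trophoblast giant cells (prolactin-like protein E). Prl4a1 read 9.19 and 8.72 in the homozygote, against 9.42 and 9.03 in the heterozygote, a ratio of -0.27 ± 0.06. Prl7a1 read 7.88 and 7.84 in the homozygote, against 7.34 and 7.80 in the heterozygote. For Prl7a1 the arrays disagreed in size, with ratios of 0.54 and 0.05.

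The other 15 were not measured, among them the probe for prolactin itself, which was well above background in no sample. Of the 18 family probes not measured in all, 8 were above background in no sample and 10 on array 1 only. Prl3c1, another product of the decidua (decidualin), was well above background in the homozygote of 1 array only. Its levels of 7.16 and 7.10 in the homozygote stood against 6.95 and 6.75 in the heterozygote, neither of which was well above background.

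Taking 1 probe per gene, the brightest measured one, 9 family genes were measured. One was called higher and none lower, where 2.41% of all 18607 measured genes were called in either direction, 0.0591% higher and 2.35% lower. The median over the 9 was 0.36, against -0.02 over all measured genes. It was 0.59 with the scanner software's ratio and 0.63 in the deposited value table. With median centring of the spots in place of loess the median of all measured genes was 0.12, and ratios under that setting are to be read against it. Of the 9, 7 were above 0 on both arrays and Prl3b1 and Prl4a1 were below 0 on both, where 25.7% and 34.0% of all genes were so. Prl2c5 and Prl2c3 are counted here by their brightest probes, while their other measured probes read -0.23 and 0.09. The Prl3d2 probe is also listed for Prl3d1, and the set was chosen on Prl8a2, so nothing is read from this median or these shares.

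The prolactin receptor Prlr, through which the lactogens signal, was measured in both pools. It read 8.91 and 8.77 in the homozygote, against 8.69 and 8.88 in the heterozygote, so the genotypes overlapped and the 2 arrays differed in sign (0.06 ± 0.23). Of 15 measured genes of the receptor and its JAK-STAT pathway none passed the rule, and their median was -0.02. Farthest from 0 were the signal transducer Stat3 (-0.26 ± 0.32), the feedback inhibitor Socs2 (-0.21 ± 0.04), the phosphatase Ptpn11 (0.16 ± 0.19) and the adaptor Irs1 (0.15 ± 0.42). For Ptpn11 the other probes read -0.16 and -0.21, opposite in sign, so no direction is given for it.

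**Figure D4:**
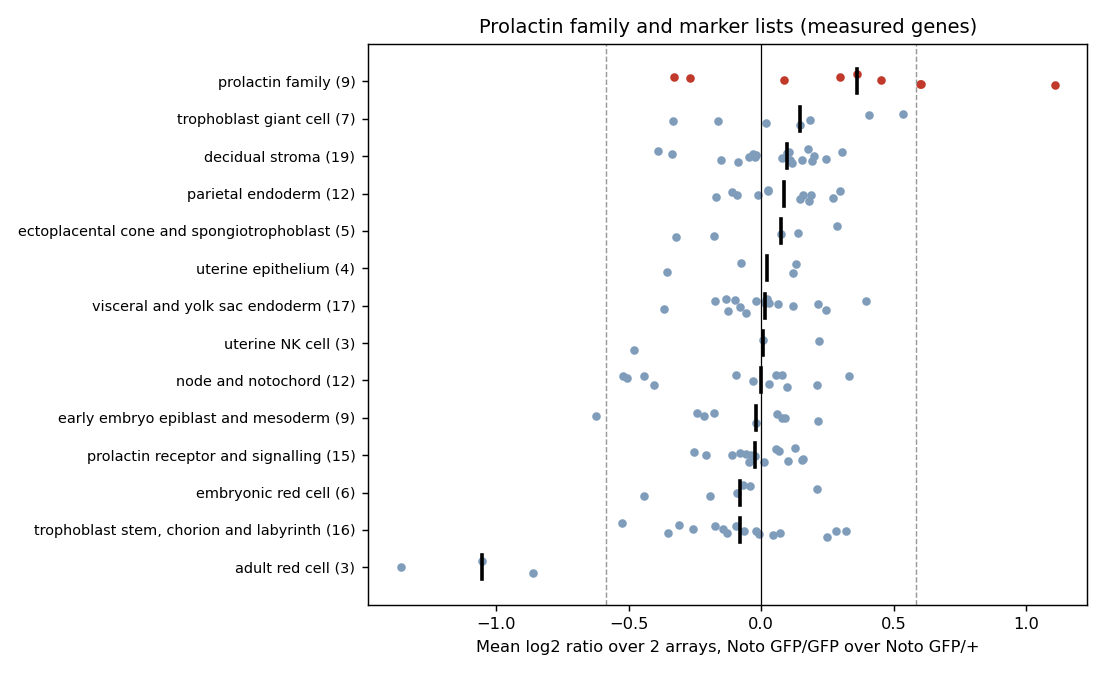
Mean log2 ratio (Noto GFP/GFP over Noto GFP/+) of each measured gene in the prolactin family (red) and in the 13 other lists (blue), with the number of measured genes in brackets, a black bar at each median and dashed lines at 1.5-fold. The family median is 0.36, that of trophoblast giant cell genes 0.15 and that of decidual stroma genes 0.10, and the 3 adult red cell genes lie at or below -0.86.

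In bulk samples such as these, fewer cells of a type and less RNA per cell cannot be told apart. The decidual stroma list, which holds no prolactin gene, had 19 of 20 genes measured, none called, and a median of 0.10. Of the 19, 9 were above 0 on both arrays and 6 below 0 on both. The summed level (linear intensity), to which a few bright genes such as Il11ra1 and Alpl add most, was 98755 and 97682 in the homozygote, against 106785 and 100640 in the heterozygote. Dim genes of the list weigh little in this sum, and it is not read as an amount of decidua. The part of decidual tissue in the Prl8a2 ratio was not tested. Farthest from 0 were the protease gene Htra3 at -0.39 ± 0.42 (-0.07 from a second probe), the signal gene Wnt6 at -0.34 ± 0.04 (-0.18 from a second probe), the homeobox gene Hoxa11 at 0.31 ± 0.22 (0.92 with the scanner software's ratio) and the intermediate filament gene Des at 0.25 ± 0.24. Tdo2, an enzyme of tryptophan breakdown and a defining decidual marker, read 7.98 and 7.73 in the homozygote, against 7.85 and 7.48 in the heterozygote, a ratio of 0.19 ± 0.09, with 0.52 from a second probe.

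Markers of cells that lie beside decidual stroma were sparse. Of 13 uterine natural killer cell genes 3 were measured, and the defining ones, the perforin gene Prf1, the granzyme gene Gzma and the receptor gene Ncr1, were not. The granzyme gene Gzmd read -0.48 ± 0.05 and Gzmc 0.22 ± 0.01. Gzmd was well above background in the homozygote of 1 array only. Of 7 uterine epithelial genes on the array 4 were measured, with a median of 0.02, and Ltf and Muc1 were not.

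Trophoblast giant cells, the source of Prl3d1 and the proliferins, had 7 of 13 further markers measured, none called, with a median of 0.15. Their summed level was 21325 and 18749 in the homozygote, against 21083 and 20498 in the heterozygote. Most of it came from the bright genes Pcsk6, Hand1 and Mdfi (levels of 13.14, 12.81 and 12.00 in the homozygote of array 1). The cathepsin genes Cts7 and Cts8, both expressed in placenta, read 0.53 ± 0.21 and 0.41 ± 0.16, while the transcription factor gene Hand1, which drives giant cell fate and is also active in mesoderm, read -0.33 ± 0.15. Both cathepsin genes were dim and their ratios grew with the processing, to 1.17 and 1.18 for Cts7 and to 0.96 and 0.82 for Cts8 with the scanner software's ratio and in the deposited value table. The giant cell cathepsin genes Ctsq and Ctsj and the steroid enzyme gene Hsd3b6 were not measured. Of 13 ectoplacental cone and spongiotrophoblast genes on the array 5 were measured (median 0.07), and their defining markers Tpbpa and Tpbpb were not. The 16 measured genes of trophoblast stem cells, chorion and labyrinth had a median of -0.08, with 8 below 0 on both arrays and 4 above. Farthest from 0 were Plet1 (-0.53 ± 0.18, with -0.20 from a second probe), Gata3 (-0.35 ± 0.15), Peg10 (0.32 ± 0.16) and Tfap2c (-0.31 ± 0.03). None of these lists held a called gene, and their part in the prolactin ratios was not tested.

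Extraembryonic endoderm moved little by the same measure, with medians of 0.09 over 12 parietal genes and 0.01 over 17 visceral genes and none called. The adult haemoglobin genes ran the other way from Prl8a2. All 3 measured were lower, Hbb-bt at -1.36 ± 0.07, Hba-a1 at -1.05 ± 0.18 and Hba-a2 at -0.86 ± 0.08. Of the 3 other measured Hbb-bt probes, the lowest ratio was -1.27, the middle one -0.98, and the one nearest 0 was -0.51, short of the 1.5-fold limit on average. The summed level of the 3 adult genes was 6739 and 5067 in the homozygote, against 15327 and 11081 in the heterozygote. The 6 measured embryonic red cell genes had a median of -0.08, with 4 below 0 on both arrays and 1 above. Their globin genes Hbb-y (-0.44 ± 0.12) and Hbb-bh1 (-0.20 ± 0.03) were below 0 on both arrays, and Gata1 (0.21 ± 0.11) was above. In the homozygote each of these globin genes was well above background on 1 array only. All 12 genes of the node and notochord list were measured, with a median ratio of 0.00 and none called. That median lies between genes on either side of 0, and a ratio between the pools cannot check which tissue was collected. The cilium regulator gene Foxj1 (-0.52 ± 0.09), the Nodal antagonist gene Lefty1 (-0.51 ± 0.20), the signal gene Shh (-0.44 ± 0.07) and the BMP antagonist gene Nog (-0.40 ± 0.07) were each below 0 on both arrays, and the notochord gene T (0.33 ± 0.02) was above 0 on both. The 9 embryonic epiblast and mesoderm genes had a median of -0.02, with the mesoderm gene Meox1 called lower (-0.62 ± 0.04). A second Meox1 probe read -0.55, short of the 1.5-fold limit on average. Whether the haemoglobin transcripts came from maternal or embryonic blood was not tested, nor was the part of blood in the prolactin ratios.

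The 5 genes with a real symbol whose ratios on the 2 arrays lay nearest to those of Prl8a2 were Ces1c, Dcpp3, Ube2s, Afm and Hdac9. Ces1c, a carboxylesterase, read 9.58 and 9.23 in the homozygote, against 8.74 and 8.41 in the heterozygote (ratio 0.83 ± 0.02), with a larger difference from Prl8a2 of 0.28. Dcpp3, a secretory protein first found in salivary glands, read 8.23 and 7.83 in the homozygote, against 7.09 and 7.04 in the heterozygote (0.97 ± 0.25), with a difference of 0.29. The ubiquitin-conjugating enzyme gene Ube2s (0.79 ± 0.15), Afm, for a vitamin E carrier of serum (0.69 ± 0.04), and the histone deacetylase gene Hdac9 (0.66 ± 0.06) differed from it by 0.44, 0.46 and 0.47. No other prolactin-family gene was among the 5. With the scanner software's ratio Dcpp3 (2.22 and 1.82) and Afm (1.48 and 1.70) lay above Prl8a2 (1.31 and 1.38) on both arrays. The rank of Prl8a2 among named genes thus depends on the processing. Likeness here is over 2 arrays of the same RNA.

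**Figure D5:**
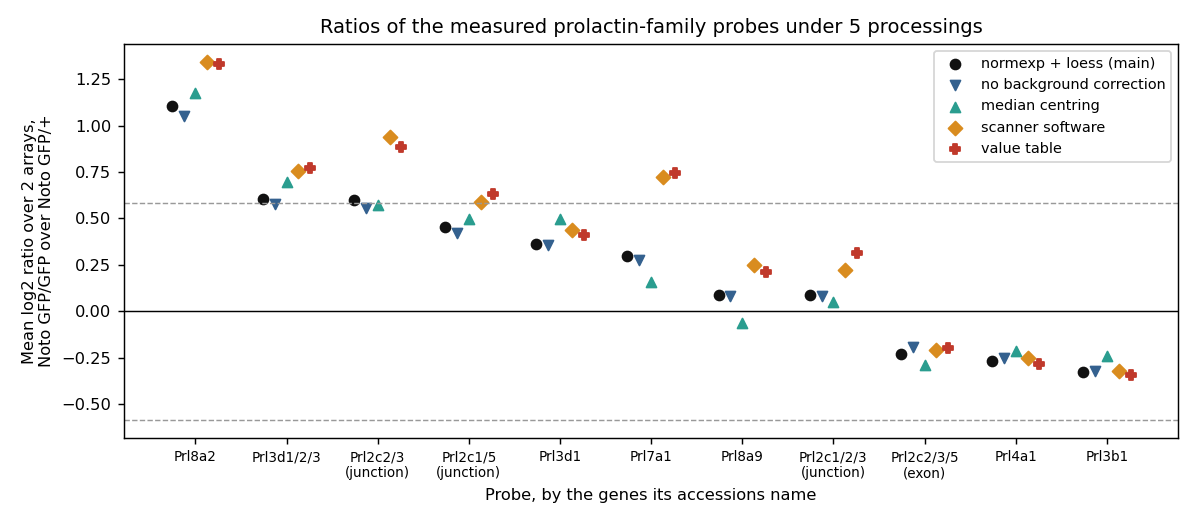
Mean log2 ratio (Noto GFP/GFP over Noto GFP/+) of the 11 measured family probes under 5 ways of processing the spots, with dashed lines at 1.5-fold. Prl8a2 lies between 1.05 and 1.34 and Prl3b1 below 0 throughout, the Prl2c2/3 junction probe reaches 0.94 with the scanner software, and Prl8a9 lies on either side of 0.

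The order of the family under other ways of processing was led by Prl8a2 in every setting drawn. The junction probe for Prl2c2 and Prl2c3 had a mean ratio of 0.94 with the scanner software's processed ratio and 0.89 in the deposited value table, and the shared Prl3d1 probe 0.75 and 0.77. Both then passed the 1.5-fold rule on each array. The Prl3d1-only probe lay between 0.35 and 0.50 over the settings drawn.

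On each array 43379 of 45018 spots belonged to genes, none saturated, and 64.0% to 81.5% of them were well above background. In the scanner software's summary of spiked-in RNAs the slope of measured against true log ratio was 0.809 on array 1 and 0.705 on array 2. The software's ratios were thus compressed. No such slope was found for the ratios of this text, which for Prl8a2 were smaller still (1.11 against 1.34). Across all measured genes, which are no independent replicates, the ratios of array 1 and array 2 had r = 0.50.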

How the data were processed

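The authors used Agilent Feature Extraction 9.5.3.1 to read both arrays, per the submitters' processing notes. Per the file headers, each scanner file gives foreground and background intensity per spot, a log10 ratio of red over green, and spot flags (unit other) for background, saturation and outliers. The authors also deposited a value table of intensity per sample, floored at 15, whose scaling method is unstated. The 2 samples of an array have identical scanner files, so each array was read once.

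From these, normexp background correction (offset 50) and within-array loess were run in limma 3.58.1 (R 4.3.3), giving control spots no weight. The software's outlier spots, 179 on array 1 and 165 on array 2, were dropped. The sign of array 2 was reversed, and each log2 ratio is homozygote over heterozygote. Levels are log2 intensities after loess and Aquantile scaling. Spots of 1 probe were averaged, and a gene took its brightest measured probe. Names came from the files, updated through a RefSeq table (GRCm38.p6, names only): 33116 probes matched and 8058 kept the file's name. Probe positions and sequences are those of the files (mm8). The method was tested on simulated data. Junction probes were aligned with Biopython 1.88, and summaries and plots used Python 3.11.15 with pandas 2.3.3, numpy 2.4.6 and matplotlib 3.10.9.

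There was 1 RNA pool per genotype, so no comparison was tested, and the number of arrays limits the precision. The rule for named genes took the 6 members with all probes, every other measured family gene, up to 4 measured genes farthest from 0 of each other list, and the 5 genes nearest to Prl8a2 by the larger of the 2 differences between arrays. Some genes, such as Tdo2, T, Prlr and markers not measured, were named outside that rule. No measured gene was named from the uterine epithelium, ectoplacental cone, parietal endoderm or visceral endoderm lists, and other lists were named in part. The members, the 14 lists and the rules were chosen with earlier results of these data known. The genotype labels were not checked against the targeted gene, whose values are not analysed here.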

Additional observations from a re-analysis of the deposited data

How the results depend on the processing

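The Prl8a2 ratio, 1.11 with the settings of the text, kept its direction and its 1.5-fold call under every alternative run: it was 1.05 without background correction, 1.34 with the scanner software's ratio, 1.33 in the deposited value table, 1.18 with median centring, and 1.09 to 1.13 on single arrays. The count of family genes called, 1 with these settings, was 3 with the software's ratio (Prl8a2, Prl2c3, Prl3d2), 4 in the value table (with Prl2c5), and 2 on either array alone, array 2 adding Prl2c3 and array 1 adding Prl3d2. Over all genes 448 were called (11 higher, 437 lower), against 814 with the software's ratio (101 higher, 713 lower), 746 in the value table (95 higher, 651 lower), 96 at 2-fold, and 769 to 1058 on single arrays. The cause of these shifts was not tested, beyond fewer arrays or a stricter threshold. Of the other ratios of member probes 16 moved by over 1 SD and 44 did not, and of the list medians 23 moved and 61 did not. A single array cannot move a probe's ratio by 1 SD, because that SD comes from the same 2 arrays. The single-array values within the 44 were therefore fixed in advance and show no stability. The count of member probes also includes those not measured. Filters on dim probes and the rule for several probes left Prl8a2 as the called family gene. Each array held both genotypes, so each ratio is a value within an array. No paired analysis was possible because the replicate numbers name 2 arrays of the same 2 RNA pools and the results come from no test. The 18 dim family probes are limited by signal over background.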
